A study of Homo sapiens with 7 samples.

Results

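The genes described here are the human DNA topoisomerases and the phosphodiesterases that take stalled topoisomerases off DNA. Members were chosen by gene symbol, as TOP1, TOP2A, TOP2B, TOP3A, TOP3B, TOP1MT, TDP1 and TDP2, and all 8 were found, each in a single row, among 14535 genes. They were measured by RNA sequencing in A549, an epithelial line from a human lung adenocarcinoma, in 2 groups of cells sorted as positive for β-galactosidase activity, a stain commonly used to mark senescence. In the stretch group (4 libraries, numbered 4 to 7), cells had been elongated cyclically by 15%, with 15 cycles in each minute, over 24 h. In the doxorubicin group (3 libraries, numbered 1 to 3), cells had received 100 nM doxorubicin for 24 h. Staining followed after 6 days in both groups, and only stained cells gave RNA. No untreated or unsorted cells were analysed here, so every difference is between 2 kinds of β-galactosidase-positive cells. The labels do not say that libraries came from separate cultures, and the p-values measure no more than how these libraries vary, and that variation may be technical.

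Topoisomerases relieve the twisting and tangling of DNA by cutting it, passing strands, and sealing the cut, and during the cut a tyrosine of the enzyme is bound covalently to a DNA end. The type II enzymes TOP2A and TOP2B cut both strands, and doxorubicin traps them on the cut DNA, which makes them the main targets of the drug. TOP2A is made in dividing cells and separates sister chromosomes, whereas TOP2B is present in dividing and resting cells and acts at active genes. TDP2 removes trapped type II enzymes from DNA ends and TDP1 removes trapped type I enzymes. The comparison asks whether cells that went through a type II poison carry other transcript levels of its targets and of the clearing enzymes, 6 days on, than stained cells that went through mechanical force.

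Total counts were 5636494 to 7419798 in the stretch libraries and 2611766 to 4644650 in the doxorubicin libraries. Levels are given in CPM, the usual library-size-normalised count, after TMM scaling, which sets the bulk of genes equal between libraries, and differences as log2 fold changes, stretch minus doxorubicin. Doxorubicin libraries 1 and 2 stood apart from the others: 10.9% and 21.4% of the table's rows were at a count of 0 there, against 4.17% to 4.88% in stretch and 5.1% in doxorubicin library 3. A single gene, EIF4A2, took 1.67% to 2.87% of the counts in stretch, and 16.1%, 30.6% and 10.8% in doxorubicin libraries 1, 2 and 3. A count of 3, taken as the detection level, stood for 0.321 to 0.401 CPM in stretch and for 0.567 to 2.59 CPM in doxorubicin. Counting intervals below are exact Poisson intervals at 95% and cover counting error only, since the reads carry no molecular identifiers. Libraries were made by amplifying a short stretch of each gene, so CPM values of different genes are not comparable with each other, and levels are compared between libraries only. In such bulk samples, fewer expressing cells and less RNA per cell cannot be told apart.

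None of the 7 genes that could be tested differed in either direction when tested with edgeR (quasi-likelihood fit, Benjamini-Hochberg adjusted p below a threshold of 0.05). TOP3B was too low for the test. Of the 7, 6 lay on the stretch side and 1, TOP3A, on the doxorubicin side. Over all 11230 tested genes, 2.32% passed, 0.356% higher in stretch and 1.97% higher in doxorubicin. At an unadjusted p under 0.05 there were 2 of the 7, TOP1 and TOP1MT, where 23.2% of all tested genes fell under that level. By limma-voom 0 of the 7 passed, where 1.66% of all genes did, and by DESeq2 1 of 8, TOP1MT, where 3.09% of all genes passed toward stretch. The median log2 fold change of the 7 genes was 0.21, beside 0.02 over all tested genes. Leaving out doxorubicin library 3 gave a median of 0.53 over the 8 genes then tested, beside 0.15 over all tested genes. Leaving out stretch library 7 gave 0.11 over 7, beside 0.02 over all tested genes.

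**Figure D1:**
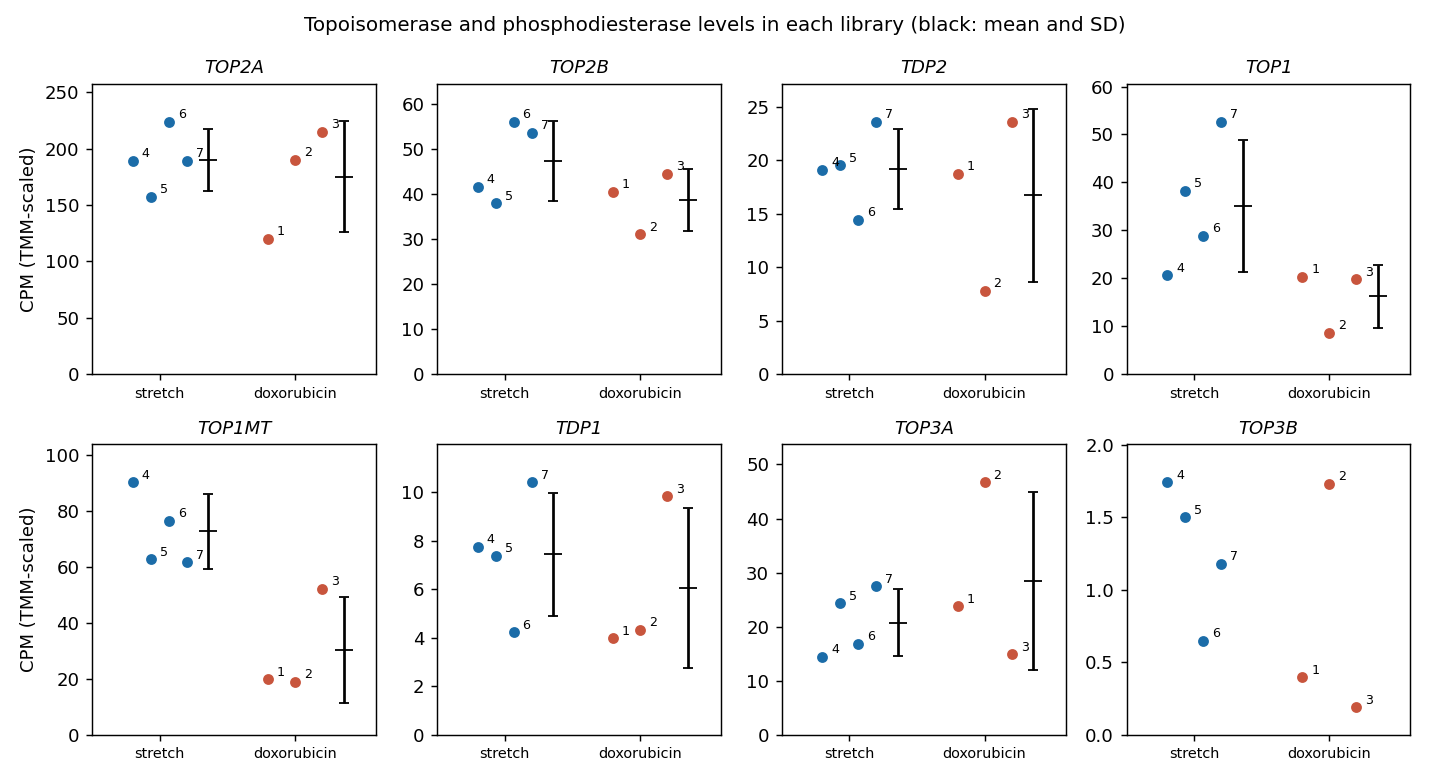
Each panel plots the CPM of a gene (vertical axis, linear from 0) in the 4 stretch libraries (left) and the 3 doxorubicin libraries (right), with the library number beside each point and the group mean and SD in black (not drawn for TOP3B, which had 1 to 14 counts). The groups separate for TOP1 and TOP1MT, whose lowest stretch values are 20.6 and 61.6 CPM, and they overlap for the other genes.

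The type II enzymes, the targets of doxorubicin, come first, with their promoters, shown because TOP2A is known for its control through the cell cycle at the level of transcription. TOP2A lies on chromosome 17 (40388516 to 40417950, minus strand, GRCh38, GENCODE release 29) and TOP2B on chromosome 3 (25597905 to 25664907, minus strand). That control is known to run in part through CCAAT boxes, which bind the factor NF-Y. The 250 bases before the RefSeq start (GRCh38.p14) are printed 5′ to 3′ on the gene's strand for TOP2A (chr17:40417897-40418146) and for the outer of 2 listed starts of TOP2B (chr3:25664908-25665157), with each match to CCAAT, on either strand, in capitals.
TOP2A: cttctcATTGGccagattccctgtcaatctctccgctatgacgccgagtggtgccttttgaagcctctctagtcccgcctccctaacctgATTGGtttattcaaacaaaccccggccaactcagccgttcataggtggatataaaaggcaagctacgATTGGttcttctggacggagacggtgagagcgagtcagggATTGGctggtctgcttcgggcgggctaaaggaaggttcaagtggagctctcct
TOP2B: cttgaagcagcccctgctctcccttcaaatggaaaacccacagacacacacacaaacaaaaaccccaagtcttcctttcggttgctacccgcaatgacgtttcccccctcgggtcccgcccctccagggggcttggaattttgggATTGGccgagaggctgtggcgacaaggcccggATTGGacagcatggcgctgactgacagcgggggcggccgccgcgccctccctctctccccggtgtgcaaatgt
The TOP2A window holds 4 matches, at 244, 160, 93 and 53 bases before the start, each reading ATTGG on the gene's strand. The outer TOP2B window holds 2 matches and that of the inner start (chr3:25664373-25664622) holds 0. Among 35116 RefSeq promoters of this length, 32% hold at least 1 match, 9.53% at least 2 and 0.874% at least 4. Promoters were found for 7 of the 8 genes, and among the others that were searched, those of TOP1, TOP3A, TOP3B, TDP1 and TDP2, CCAAT had 0 matches. Other motifs were searched too. The TOP2A window held 2 matches to TTTGAA (the CHR motif), at 194 and 151 bases before the start. It also held 1 match to GGGCGG (the GC box), at 36 bases. The outer TOP2B window held 1 match to TTTGAA and 2 to GGGCGG. At least 1 match was held by 13.3% of RefSeq promoters for TTTGAA and by 42.6% for GGGCGG. A match is a run of letters and is not evidence of binding.

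TOP2A was well detected in every library, with 220 to 2074 counts. It had 189, 157, 224 and 189 CPM in stretch libraries 4, 5, 6 and 7, against 120, 190 and 215 CPM in doxorubicin libraries 1, 2 and 3. The ranges overlapped, with doxorubicin library 1 below every stretch library and doxorubicin libraries 2 and 3 within the stretch range. Means were 190 ± 27.4 CPM in stretch (SD, n = 4) and 175 ± 49.2 CPM in doxorubicin (SD, n = 3), a log2 fold change of 0.12 (SE 0.31, 95% interval -0.56 to 0.80, adjusted p = 0.845 by edgeR). The interval leaves room for a difference of up to 0.80 on the log2 scale toward stretch and 0.56 toward doxorubicin. The sign was not stable, at -0.09 without doxorubicin library 1 and -0.16 when library 3 alone stood for doxorubicin, a fit that takes its spread from the stretch libraries and assumes that the lone library varies like them. With limma-voom and library quality weights, a setting in which 23.4% of all genes passed toward stretch, TOP2A had a log2 fold change of 0.51 and an adjusted p of 0.0394.

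TOP2B was also present in every library. Its levels were 41.7, 38, 56.2 and 53.7 CPM in stretch libraries 4 to 7, against 40.5, 31.1 and 44.6 CPM in doxorubicin libraries 1 to 3. The ranges overlapped, with stretch libraries 6 and 7 above every doxorubicin library and doxorubicin library 2 below every stretch library. The log2 fold change was 0.28 (SE 0.29, 95% interval -0.36 to 0.92, adjusted p = 0.583 by edgeR). It was above 0 in all 17 alternatives, from 0.10 to 0.94, and passed the threshold in 0 of them.

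TOP2B ends tail to tail with RARB, a retinoic acid receptor, and the annotations of both genes overlap by 28 bases on opposite strands. RARB did differ. It had 4.27, 5.78, 5.3 and 6.02 CPM in stretch, against 27.8, 55.3 and 15.5 CPM in doxorubicin. Every doxorubicin library was above every stretch library, and RARB fell by 2.57 on the log2 scale in stretch (adjusted p = 0.0191 by edgeR). It was named after its value was seen, as a neighbour of TOP2B. Over 17 alternatives its log2 fold change ran from -2.89 to -1.52, with -1.52 when library 3 alone stood for doxorubicin, and adjusted p from 6.22e-07 to 0.125. Of these 10 passed, and the call was lost when doxorubicin library 1 or any stretch library was left out, when library totals were the only scaling (-1.60), and when library 3 alone stood for doxorubicin. Whether counting used strand is not given in the sources used here, so reads from the shared bases cannot be assigned to either gene.

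TDP2, which frees DNA ends from trapped type II topoisomerases, is encoded on chromosome 6 (24649977 to 24667033). It stood at 19.1, 19.5, 14.4 and 23.6 CPM in stretch libraries 4 to 7, against 18.7, 7.78 and 23.6 CPM in doxorubicin libraries 1 to 3. Doxorubicin library 2 was the lowest, but it rested on 9 counts, with a counting interval of 3.56 to 14.8 CPM that reaches the lowest stretch value, library 1 lay among the stretch libraries, and library 3 was level with the highest of them. Means were 19.1 ± 3.76 CPM in stretch and 16.7 ± 8.11 CPM in doxorubicin, a log2 fold change of 0.14 (SE 0.38, 95% interval -0.70 to 0.99, adjusted p = 0.847 by edgeR), and -0.15 without doxorubicin library 2. The transcript start of TDP2 lies 2 bases from that of ACOT13, an acyl-CoA thioesterase encoded on the other strand. ACOT13 averaged 51.6 CPM in stretch and 60.7 CPM in doxorubicin, a log2 fold change of -0.24 (adjusted p = 0.719 by edgeR).

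Among the 7 tested genes, the type IB enzymes TOP1 and TOP1MT had the highest log2 fold changes. TOP1, the nuclear enzyme that nicks a single strand and is the target of camptothecin drugs, lies on chromosome 20 (41028818 to 41124487). It had 20.6, 38.3, 28.9 and 52.7 CPM in stretch libraries 4 to 7, against 20.3, 8.65 and 19.8 CPM in doxorubicin libraries 1 to 3. All 4 stretch libraries were above all 3 doxorubicin libraries. The gap was nevertheless within counting error, since stretch library 4 (154 counts, interval 17.4 to 24.1 CPM) and doxorubicin library 1 (51 counts, interval 15.1 to 26.6 CPM) overlapped. Means were 35.1 ± 13.8 CPM in stretch and 16.2 ± 6.59 CPM in doxorubicin, a log2 fold change of 1.07 (SE 0.42, 95% interval 0.15 to 1.99, adjusted p = 0.157 by edgeR). It was above 0 in all 17 alternatives, from 0.81 to 1.69, with adjusted p from 0.00887 to 0.39, and passed in 1, the fit with library quality weights. Some 26159 bases of TOP1 lie opposite PLCG1-AS1, an antisense gene not analysed here.

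TOP1MT is the topoisomerase of mitochondria, where it relaxes the mitochondrial genome, and is encoded in the nucleus on chromosome 8 (143304384 to 143359979). It had 90.2, 62.7, 76.4 and 61.6 CPM in stretch libraries 4 to 7, against 19.9, 19 and 52.2 CPM in doxorubicin libraries 1 to 3. The groups did not overlap, and doxorubicin libraries 1 and 2 were far below doxorubicin library 3, which was close to the lowest stretch libraries. Means were 72.8 ± 13.5 CPM in stretch and 30.3 ± 18.9 CPM in doxorubicin, a log2 fold change of 1.23 (SE 0.40, 95% interval 0.34 to 2.11, adjusted p = 0.112 by edgeR). Doxorubicin libraries 1 and 2 averaged 26.7% of the stretch mean and doxorubicin library 3 was at 71.7% of it. The difference was accordingly 1.93 on the log2 scale (adjusted p = 0.00166 by edgeR) without doxorubicin library 3, a setting in which 16% of all tested genes passed toward stretch, and 0.50 with doxorubicin library 3 alone. Of the 17 alternatives 3 passed, the others being DESeq2 (adjusted p = 0.039) and limma-voom with library quality weights (adjusted p = 2.06e-05).

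Ranges that did not overlap, as in TOP1 and TOP1MT, were common: they occurred toward stretch in 11.5% of all tested genes and toward doxorubicin in 9.88%. Group and depth went together, since every doxorubicin library was shallower than every stretch library. Within groups, TOP1 was lowest in the shallowest library, at 8.65 CPM in doxorubicin library 2 and 20.6 CPM in stretch library 4. It stood at 20.3 CPM in doxorubicin library 1 and 19.8 CPM in the deeper library 3. In order of rising depth, TOP1MT had 19, 19.9 and 52.2 CPM in doxorubicin libraries 2, 1 and 3. Among stretch libraries TOP1MT was highest, at 90.2 CPM, in the shallowest. The part of depth in these differences was not tested.

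TDP1, which releases type I topoisomerases from DNA and lies on chromosome 14 (89954939 to 90044768), was low in all libraries. It had 7.74, 7.38, 4.22 and 10.4 CPM in stretch libraries 4 to 7, against 3.97, 4.32 and 9.83 CPM in doxorubicin libraries 1 to 3. The values interleaved, and those of doxorubicin libraries 1 and 2 rested on 10 and 5 counts. TDP1 had a log2 fold change of 0.21 (SE 0.46, 95% interval -0.80 to 1.22, adjusted p = 0.813 by edgeR). Without doxorubicin library 3 it was 0.88, and with that library alone -0.39. EFCAB11, whose start lies 162 bases away on the other strand, averaged 6.07 CPM in stretch and 3.49 CPM in doxorubicin (log2 fold change 0.70, adjusted p = 0.382 by edgeR).

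**Figure D2:**
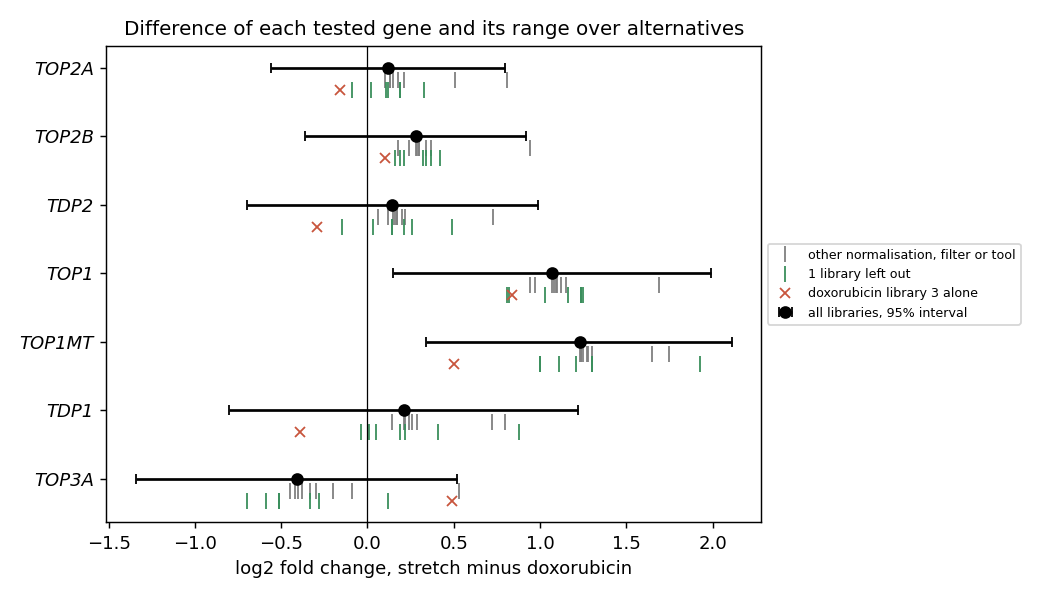
The log2 fold change, stretch minus doxorubicin, of the 7 tested genes is plotted with its 95% interval (black), and below it the values under other normalisations, filters or tools (grey), with 1 library left out (green) and with doxorubicin library 3 alone (cross). The intervals of TOP1 and TOP1MT lie above 0 before adjustment, the crosses of TOP2A, TDP1 and TDP2 fall below 0, and that of TOP3A falls above 0.

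The TOP3 enzymes are type IA topoisomerases, which pass a single strand through a nick. TOP3A works with the BLM helicase to take apart recombination intermediates and also acts in mitochondria, and TOP3B acts on RNA as well as DNA. TOP3A (chromosome 17, 18271428 to 18315007) had 14.4, 24.3, 16.8 and 27.5 CPM in stretch libraries 4 to 7, against 23.8, 46.7 and 14.9 CPM in doxorubicin libraries 1 to 3. Doxorubicin library 2 was above every other library and the rest were intermixed. TOP3A had a log2 fold change of -0.41 (SE 0.42, 95% interval -1.34 to 0.52, adjusted p = 0.577 by edgeR). The sign depended on doxorubicin library 2 and on scaling: it was 0.12 without that library, 0.49 with doxorubicin library 3 alone, and 0.53 with library totals as the only scaling, which moved the median of all tested genes from 0.02 to 0.71. SMCR8, whose start lies 303 bases away on the other strand, averaged 18 CPM in stretch and 9.78 CPM in doxorubicin (log2 fold change 0.89, adjusted p = 0.243 by edgeR).

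TOP3B (chromosome 22, 21957025 to 21982816) had few counts, and was below the detection level in every doxorubicin library. It had 13, 14, 6 and 11 counts in stretch libraries 4 to 7, against 1, 2 and 1 counts in doxorubicin libraries 1 to 3. In CPM these were 1.74, 1.5, 0.649 and 1.18 in stretch, against 0.397, 1.73 and 0.189 in doxorubicin, and the groups overlapped through doxorubicin library 2. Pooled over libraries, 44 counts in stretch against 4 in doxorubicin gave a ratio of 2.79, with an exact counting interval of 1.01 to 10.7 that takes no account of the spread between libraries. Without a filter on low counts the log2 fold change was 1.36 (adjusted p = 0.372 by edgeR). No difference was detected across libraries. The annotation also holds a pseudogene copy, TOP3BP1, and an antisense gene that covers 20608 bases of TOP3B. Whether the amplified stretch of TOP3B lies in copied or shared bases was not examined, so an effect on its counts is not known.

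Ratios of related genes within a library do not depend on how libraries are scaled to each other, and 4 were computed from counts with a pseudocount of 0.5. The log2 ratio of TOP2A to TOP2B was 2.18, 2.05, 1.99 and 1.82 in stretch libraries 4 to 7, against 1.56, 2.59 and 2.26 in doxorubicin libraries 1 to 3. The doxorubicin values lay on both sides of the stretch range, and the mean was 2.01 ± 0.15 in stretch (SD, n = 4) and 2.14 ± 0.53 in doxorubicin (SD, n = 3). The difference was -0.13 (two-sided exact permutation p = 0.686, adjusted over the 4 ratios p = 0.914). For TDP1 to TDP2 the means were -1.40 ± 0.25 in stretch and -1.41 ± 0.71 in doxorubicin (exact permutation p = 1, adjusted p = 1). For TOP1 to TOP1MT they were -1.12 ± 0.83 in stretch and -0.82 ± 0.75 in doxorubicin (exact permutation p = 0.686, adjusted p = 0.914). The ratio of TOP3A to TOP3B averaged 4.01 ± 0.72 in stretch and 5.17 ± 0.66 in doxorubicin, a difference of -1.16 that rests on 1 or 2 counts of TOP3B in each doxorubicin library (exact permutation p = 0.171, adjusted p = 0.686). With a pseudocount of 2 it was -0.48. The smallest p that this test can give with 4 against 3 libraries is 0.0571, so no ratio could have passed 0.05.

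**Figure D3:**
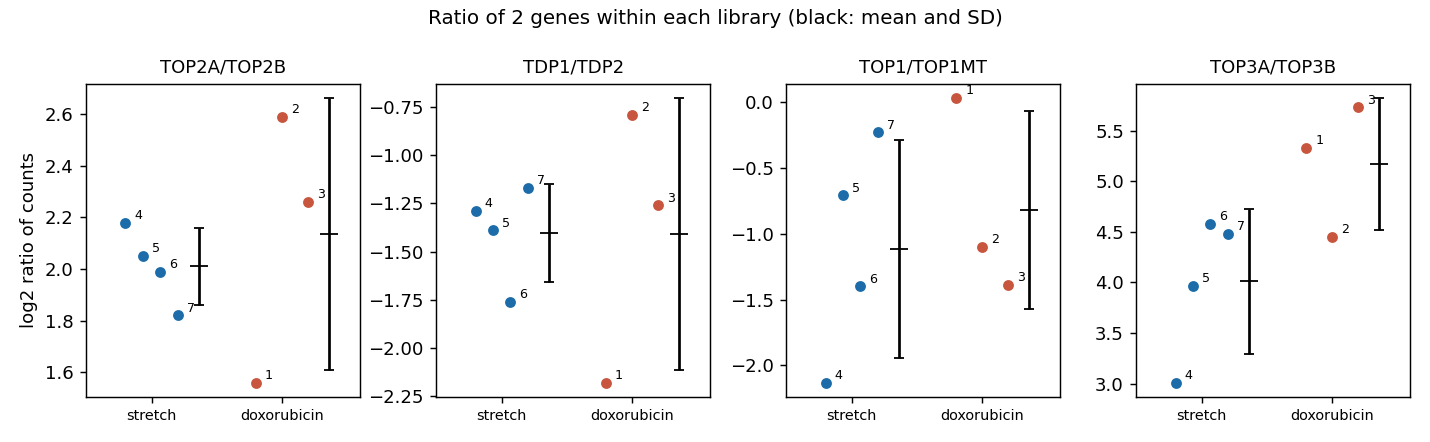
Log2 ratios of counts of 2 genes in each library are plotted for stretch (left) and doxorubicin (right), with library numbers and the group mean and SD in black. For TOP2A/TOP2B the 4 stretch libraries lie between 1.82 and 2.18 and the doxorubicin libraries between 1.56 and 2.59.

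TOP2A was next set beside 26 genes that, like it, peak in S, G2 or M phase. Their summed level was 1870, 1240, 1430 and 1610 CPM in stretch libraries 4 to 7, against 963, 1110 and 1950 CPM in doxorubicin libraries 1 to 3. Doxorubicin library 3 was thus the highest of all and doxorubicin libraries 1 and 2 the lowest. Relative to that sum, TOP2A had log2 values of -3.31, -2.99, -2.67 and -3.09 in stretch, against -3.00, -2.54 and -3.18 in doxorubicin, with overlapping groups. Of the 26 genes 19 lay on the stretch side, with a median log2 fold change of 0.22, and 0 passed by edgeR, 0 by DESeq2 and 0 by limma-voom (3 at an unadjusted p under 0.05 by edgeR, where 23.2% of all tested genes fell under that level). The lowest p values were those of PRC1, a midzone protein of the dividing cell, with a log2 fold change of 1.72 (adjusted p = 0.175 by edgeR), and CENPF, a kinetochore protein, with 1.17 (adjusted p = 0.176 by edgeR). PRC1 stood at 4.28 and CENPF at 2.23 without doxorubicin library 3, and at 0.64 and 0.23 when that library alone stood for doxorubicin. CENPF had 75.7, 57.8, 73.2 and 72.5 CPM in stretch, against 15.5, 14.7 and 60.1 CPM in doxorubicin. It was low in doxorubicin libraries 1 and 2 and within the stretch range in doxorubicin library 3. The list median was 1.14 without doxorubicin library 3, with 12 genes past the threshold toward stretch, where 16% of all tested genes passed, and -0.32 with that library alone, with 0.

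**Figure D4:**
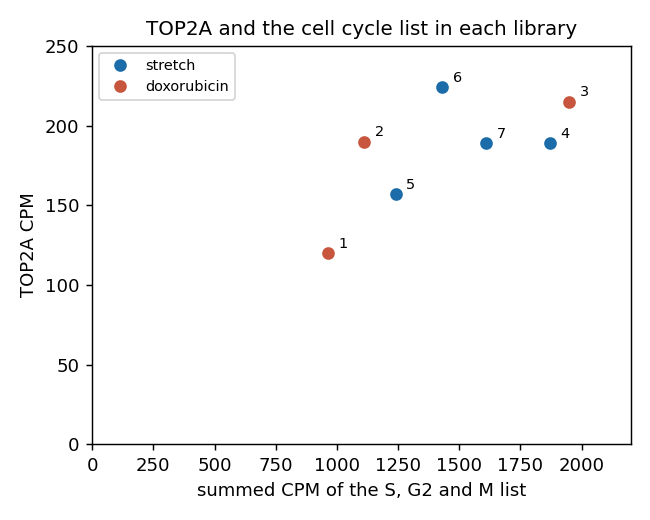
TOP2A level (CPM, vertical axis) is plotted against the summed level of the 26 S, G2 and M genes (CPM, horizontal axis) in the 4 stretch and 3 doxorubicin libraries, with library numbers. Doxorubicin library 1 is lowest on both axes, at 120 and 963 CPM, and doxorubicin library 3 stands at 215 and 1950 CPM.

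Factors that bind cell cycle promoters such as that of TOP2A were listed next, namely NF-Y subunits, SP1, E2F factors and members of the DREAM and MuvB complexes. Of 18 tested genes 8 lay on the stretch side and 10 on the doxorubicin side, with a median of -0.12, and 0 passed by edgeR or limma-voom (4 at an unadjusted p under 0.05 by edgeR, beside 23.2% of all tested genes). DESeq2 called TFDP1 (adjusted p = 0.0118), E2F3 (adjusted p = 0.0416) and E2F1 (adjusted p = 0.0443), all higher in doxorubicin, as were 6.94% of all genes by that tool. TFDP1, the partner of E2F factors, had 57.3, 61.7, 67.1 and 49.7 CPM in stretch, against 134, 408 and 80.5 CPM in doxorubicin. All doxorubicin values were above all stretch values (log2 fold change -1.81, adjusted p = 0.0687 by edgeR). Leaving out doxorubicin library 2 gave -0.85, and library 3 as the lone doxorubicin library gave -0.43. E2F3, an activator of S-phase genes, had 7.61, 10.7, 13.4 and 12.7 CPM in stretch, against 19.5, 23.3 and 24.4 CPM in doxorubicin, again with no overlap (log2 fold change -1.01, adjusted p = 0.102 by edgeR). E2F1 had 38.3 ± 7.59 CPM in stretch and 116 ± 106 CPM in doxorubicin (log2 fold change -1.58, adjusted p = 0.107 by edgeR). Its groups did not overlap, but the SD in doxorubicin was close to the mean. NFYA, the DNA-binding subunit of NF-Y, had a log2 fold change of -0.83 (adjusted p = 0.183 by edgeR). The other NF-Y subunits lay on the stretch side, NFYB at 0.30 (adjusted p = 0.659 by edgeR) and NFYC at 0.17 (adjusted p = 0.749 by edgeR).

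Once a topoisomerase is trapped, its protein part is broken down and the DNA end is cleaned and rejoined, and 5 lists follow these steps. Of 14 tested genes for SUMO or ubiquitin tagging and proteolysis of the adduct, 6 lay on the stretch side and 8 on the doxorubicin side, with a median of -0.08. Those with the lowest p were NPLOC4, an adaptor of the VCP unfoldase (log2 fold change -0.99, adjusted p = 0.105 by edgeR), and PIAS1, a SUMO ligase (-1.06, adjusted p = 0.14 by edgeR). When library 3 alone stood for doxorubicin, NPLOC4 was at -0.39 and PIAS1 at 0.12. With library totals as the only scaling, NPLOC4 was at -0.11 and PIAS1 at -0.14. NPLOC4 had 226, 256, 202 and 277 CPM in stretch, against 496, 622 and 318 CPM in doxorubicin, without overlap. SPRTN, the protease that degrades proteins crosslinked to DNA, and ZNF451, a SUMO ligase that assists TDP2, had log2 fold changes of 0.41 and 0.31.

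Nucleases that cut off a topoisomerase with a piece of DNA offer a route that needs neither phosphodiesterase. Of 13 tested, 8 lay on the stretch side and 5 on the doxorubicin side, with a median of 0.06. NBN, a subunit of the MRE11 nuclease complex, had 47.1, 49.1, 48.4 and 48 CPM in stretch, against 139, 99.4 and 80.7 CPM in doxorubicin. Its groups were far apart next to the narrow stretch range (log2 fold change -1.14 with an SE of 0.28, adjusted p = 0.0584 by edgeR). NBN passed toward doxorubicin with DESeq2 (adjusted p = 0.00228), with library quality weights (23.8% of all genes passing in that direction), without doxorubicin library 2 (adjusted p = 0.049 by edgeR, 2.02% of all genes) and without doxorubicin library 3 (16.2% of all genes). Of the 17 alternatives only these 4 passed. NBN stood at -0.36 with library totals as the only scaling, which moved the median of all tested genes to 0.71. When library 3 alone stood for doxorubicin, NBN was at -0.73. The other subunits of the MRE11 complex had log2 fold changes of -0.53 for RAD50 (adjusted p = 0.337 by edgeR) and 0.16 for MRE11A (adjusted p = 0.887 by edgeR). APEX1, the abasic-site endonuclease, had 63, 88.2, 67.5 and 82.4 CPM in stretch, against 11.1, 5.19 and 36.9 CPM in doxorubicin (3.99-fold, adjusted p = 0.0682 by edgeR). All stretch libraries were above all doxorubicin libraries, and on the log2 scale APEX1 differed by 3.14 without doxorubicin library 3, and by 1.04 with that library alone.

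Of 9 tested genes of single-strand break repair, which follows TDP1, 5 lay on the stretch side and 4 on the doxorubicin side, with a median of 0.03. APLF, a histone chaperone of break repair, averaged 11.3 ± 3.26 CPM in stretch and 22.7 ± 8.9 CPM in doxorubicin, with overlapping groups (log2 fold change -0.98, adjusted p = 0.171 by edgeR). It was at -0.16 when library 3 alone stood for doxorubicin. Of 10 tested end-joining genes, which rejoin the ends that TDP2 leaves, 7 lay on the stretch side and 3 on the doxorubicin side, with a median of 0.25. LIG4, the ligase of that pathway, had 6.41, 10.2, 10.3 and 9.68 CPM in stretch, against 18.3, 28.5 and 14.6 CPM in doxorubicin, without overlap (log2 fold change -1.12, adjusted p = 0.0985 by edgeR, and -0.65 when library 3 alone stood for doxorubicin). With library totals as the only scaling, LIG4 was at -0.29. NHEJ1, which aligns ends for LIG4, had 7, 24, 22 and 15 counts in stretch. It was near or below the detection level in doxorubicin, with 1, 0 and 4 counts (log2 fold change 1.80, adjusted p = 0.173 by edgeR, and 2.76 without doxorubicin library 3). Of 7 tested partners of TOP3A and TOP3B, 5 lay on the stretch side and 2 on the doxorubicin side, with a median of 0.25. That median was 0.93 without doxorubicin library 3 and -0.02 without doxorubicin library 2. FMR1, an RNA-binding protein found in complexes with TOP3B, had a log2 fold change of 0.76 (adjusted p = 0.176 by edgeR), and FXR2, its paralog, one of -0.94 (adjusted p = 0.239 by edgeR), with -0.14 without doxorubicin library 2 and 0.35 when library 3 alone stood for doxorubicin.

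Across these 7 lists together, 97 genes were tested, 58 on the stretch side and 39 on the doxorubicin side, and 0 passed by edgeR and 0 by limma-voom. At an unadjusted p under 0.05 there were 18 by edgeR, a smaller share than the 23.2% of all tested genes. DESeq2 called 7, which were APEX1 toward stretch and NBN, LIG4, NPLOC4, TFDP1, E2F3 and E2F1 toward doxorubicin. With DESeq2, 3.09% of all genes passed toward stretch and 6.94% toward doxorubicin. Group ranges did not overlap for 14 of the 97, 7 on each side, again smaller shares than the 11.5% toward stretch and 9.88% toward doxorubicin over all tested genes. The list medians moved with doxorubicin library 3: they ran from 0.09 to 1.14 without it, and from -0.33 to -0.10 when it alone stood for doxorubicin. The median over all tested genes was 0.15 without that library and 0.03 with it alone. The list medians moved with scaling too. With library totals as the only scaling they ran from 0.58 to 0.89, beside 0.71 over all tested genes. With library quality weights they ran from -0.11 to 0.85, beside 0.01 over all tested genes.

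**Figure D5:**
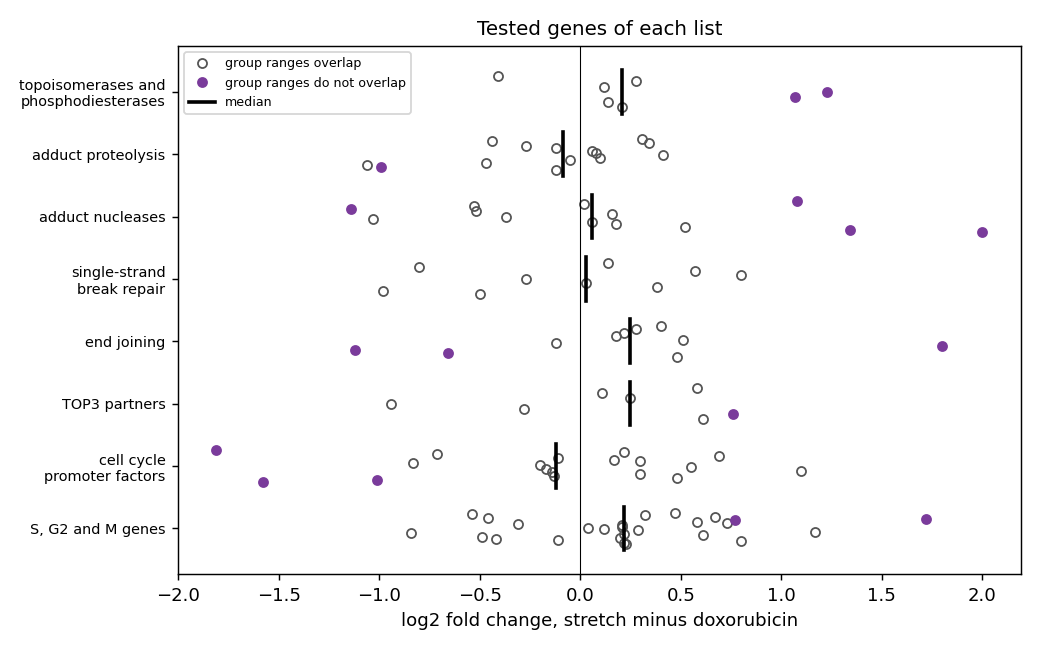
Log2 fold changes, stretch minus doxorubicin, of the tested genes of each list are plotted as points, filled where the group ranges do not overlap, with the list median as a bar. The 8 medians lie between -0.12 and 0.25, and filled points occur on both sides of 0.

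Epithelial markers of A549 were present in every library, although the summed level of KRT8, KRT18, KRT19, EPCAM and CDH1 was 950 to 1270 CPM in stretch and 1930 to 3480 CPM in doxorubicin. KRT18 carried that gap, with 460 ± 46.5 CPM in stretch and 2120 ± 956 CPM in doxorubicin (adjusted p = 0.0199 by edgeR). EPCAM lay the other way, with 12.7 ± 2.11 CPM in stretch and 3.26 ± 2.07 CPM in doxorubicin (adjusted p = 0.0574 by edgeR), and log2 fold changes were -0.44 for KRT8, 0.21 for KRT19 and -0.07 for CDH1. Some markers of other cell types were also detected, and their sums are compared between libraries only. The 5 of 7 fibroblast markers with a row summed to 14.4 to 15 CPM in stretch and 17 to 42.4 CPM in doxorubicin. Among these, THY1 had 5.92 ± 1.51 CPM in stretch and 16.7 ± 8.34 CPM in doxorubicin, without overlap (log2 fold change -1.44, adjusted p = 0.089 by edgeR). COL1A1 had a log2 fold change of -0.58 (adjusted p = 0.4 by edgeR), and COL3A1, DCN and LUM were too low for the test. The 4 of 6 immune markers with a row summed to 57.6 to 61 CPM in stretch and 100 to 139 CPM in doxorubicin. Among them, the lysosomal glycoprotein CD68 passed the threshold toward doxorubicin, without overlap of the groups. It had 18.6 ± 1.44 CPM in stretch and 75.6 ± 28.7 CPM in doxorubicin (log2 fold change -2.02, adjusted p = 0.0158 by edgeR). Lysozyme had 29.6 ± 1.98 CPM in stretch and 27.7 ± 13.7 CPM in doxorubicin (adjusted p = 0.928 by edgeR). CD14 had 10.4 ± 2.31 CPM in stretch and 10.7 ± 0.692 CPM in doxorubicin (adjusted p = 0.959 by edgeR). The lone endothelial marker with a row, CDH5, was at 0 in all doxorubicin libraries and between 0 and 0.963 CPM in stretch. COL1A2, PDGFRB, PTPRC, CD3E, PECAM1, VWF, KDR and CLDN5 were not analysed here. The part of these markers in the differences above was not tested.

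The genes whose levels ran most like those of TOP2A, TOP2B and TDP2 over the 7 libraries were found by Pearson correlation of log-CPM among 7500 genes with a mean of at least 10 CPM. These correlations describe libraries that differ in depth and treatment at once. For TOP2A they were CEP55, which completes cell division (0.928), ELP6 (0.927), FGFR1OP2 (0.917), KDM3A (0.910) and ARMCX5 (0.889). CEP55 had 63.5, 40.1, 59.9 and 57.8 CPM in stretch, against 29.4, 47.6 and 59.9 CPM in doxorubicin. For TOP2B they were the acetyltransferase EP300 (0.938), the DNA end-processing factor APTX (0.935), CDC73 (0.929), RPS3A (0.928) and TRAF3IP2 (0.928). For TDP2 they were LRPAP1 (0.982), ZCCHC17 (0.981), the mismatch repair gene MSH6 (0.979), ARMCX3 (0.979) and PSMA1 (0.977). Correlations above 0.9 were reached by 4 genes for TOP2A (0.0533% of the 7500), 7 for TOP2B (0.0933%) and 278 for TDP2 (3.71%). The named genes are the highest of 7500 over only 7 libraries. Unrelated genes can also reach such values, so a high correlation here is no evidence of a link. Whether these shares exceed those of unrelated genes was not tested.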

How the data were processed

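RNA sequencing libraries of A549 cells were analysed, 4 after stretch and 3 after doxorubicin, grouped by their titles. Trizol extraction and Ion AmpliSeq transcriptome libraries are named per the labels' protocols. The authors deposited unscaled whole numbers for each gene, which were taken as rounded estimated counts. The submitters' processing notes name fastp 0.20.1, Salmon 1.9 and GRCh38, while the annotation is not given in the sources used here, nor is the strand setting. Of 14647 rows, those sharing a symbol were summed and Metazoa_SRP (at most 0.00861% of a library) was left out.

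With R 4.3.3, edgeR 4.0.16 fitted all genes kept by filterByExpr (TMM factors, glmQLFit with robust estimation, glmQLFTest, Benjamini-Hochberg adjustment over 11230 genes, threshold 0.05). Standard errors were derived from the fold change and its F statistic, and intervals use the fit's degrees of freedom. TMM factors ran from 1.25 to 1.33 in stretch and from 0.443 to 1.14 in doxorubicin. Log-CPM used a prior count of 2. Ratios within libraries were tested by exact permutation.

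The members, the 7 gene lists and the marker lists were chosen with earlier results of these data known, so no list was tested as a set. Named genes were all members, the 2 genes of each list with the lowest p (1 of them is not reported here), and the 5 most correlated genes of TOP2A, TOP2B and TDP2. Also named, after their values were seen, were RARB and the genes that share a start region with a member. The same holds for SPRTN, ZNF451, RAD50, MRE11A, NFYA, NFYB, NFYC, E2F1 and EXO1. UFD1, MRE11, HPF1 and PAXX were found under the older symbols UFD1L, MRE11A, C4orf27 and C9orf142. Gene positions come from GENCODE release 29 on GRCh38, and promoters from RefSeq on GRCh38.p14. Alternatives were other scaling factors, filters and tools (DESeq2 1.42.0, limma-voom 3.58.1, voom with quality weights), removal of EIF4A2 and TAF1D, doxorubicin library 3 alone, and each library left out in turn.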

Additional observations from a re-analysis of the deposited data

How the results depend on the processing

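No paired analysis was possible because the groups share no replicate number. The count of the 8 genes past the threshold was 0 with all libraries, 1 toward stretch with DESeq2, 3 toward stretch (TOP1, TOP1MT and TOP2A) with voom and library quality weights, and 0 to 1 when a library was left out. The shares of all tested genes that passed toward stretch were 3.09% with DESeq2 and 23.4% with quality weights. Without doxorubicin library 3, the left-out setting that called 1 member, that share was 16%. No setting called a member toward doxorubicin. Directions that changed were those of TOP3A (0.53 with library totals, -0.70 to 0.12 when a library was left out), TDP1 (-0.04 to 0.88) and TDP2 (-0.15 to 0.49) when a library was left out, and TOP2A (-0.09 to 0.33) when a library was left out. With doxorubicin library 3 alone TOP2A, TOP3A, TDP1 and TDP2 stood at -0.16, 0.49, -0.39 and -0.29. Ratios changed sign as follows: TDP1/TDP2 was -0.08 with a pseudocount of 2 and -0.38 to 0.31 when a library was left out, TOP1/TOP1MT -0.59 to 0.13 and TOP2A/TOP2B -0.42 to 0.10. The cause of these changes was not tested.

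Over all genes, 40 passed toward stretch and 221 toward doxorubicin. The counts, stretch first, were 2 and 11 with library totals, 20 and 123 among genes averaging 10 CPM or more, 405 and 910 with DESeq2, 2626 and 2677 with quality weights, and 10 and 89 with doxorubicin library 3 alone. When a library was left out they ran from 0 to 1858 and from 12 to 1878, the highest of each without doxorubicin library 3. Genes of the 7 lists passed, stretch first, at 1 and 6 with DESeq2, 27 and 15 with quality weights, and 0 and 1 with doxorubicin library 3 alone, an arm without replicate. That 1 gene, EXO1, had 2.26 to 2.8 CPM in stretch, against 1.59, 1.73 and 10.4 CPM in doxorubicin libraries 1, 2 and 3, and an adjusted p of 0.308 by edgeR with all libraries. When a library was left out, list genes that passed ran from 0 to 22 and from 0 to 9, the highest of each without doxorubicin library 3. Over all tested genes, stretch first, 16% and 16.2% passed in that setting. The same shares were 3.09% and 6.94% with DESeq2, and 23.4% and 23.8% with quality weights. TOP3B was tested in 6 alternatives, with log2 fold changes of 0.58 to 2.65. Depth limits several of the named genes. TOP3B, TDP1, NHEJ1, PRC1, EFCAB11, EXO1 and the marker CDH5 are among those with 10 or fewer counts in at least 2 doxorubicin libraries.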
